A study of Panicum virgatum with 54 samples.

Results

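In droughted switchgrass leaves, 47 genes stood above the watered controls at 96 to 168 h but did not stand above them in plants that were droughted and then also heated. They were selected on these counts by a rule, from 32190 genes in all. Levels were taken as log2(CPM + 1), where CPM is a gene's count divided by its library's total and scaled to 1 M (M for mega), over the 36 libraries at 96 to 168 h (12 per treatment). Of 27163 genes with a mean of at least 3 CPM there, 1994 had a 25th percentile in drought at least 0.4 above the control median. Of those, 1947 also had a 75th percentile in the combined treatment more than 0.2 above the control median, and the remaining 47 are the members. Members were ranked by how far the drought median lay above that 75th percentile. The rule would have kept up to 150 genes, so its rank limit removed none. Values at 96 to 168 h chose the members, and they are given as a description with no test.

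By the labels, all plants were Panicum virgatum of genotype AP13, a selection from the lowland cultivar Alamo, grown as potted ramets. That every library comes from this genotype was not checked against the counts. Leaves at stage E3 were sampled at 0, 72, 96, 120, 144 and 168 h in 3 treatments with 3 libraries each, which makes 54 libraries in 18 groups. Control plants were not stressed, drought plants were droughted only, and combined plants were droughted with heat added from 72 h. By the sample titles, combined plants had no heat at 0 and 72 h, and 24, 48 and 72 h of heat at 96, 120 and 144 h, while the hours of heat at 168 h are not stated. The combined plants were kept in a chamber of their own, apart from the one that held control and drought plants, so heat and chamber cannot be told apart from 96 h on, while at 0 and 72 h comparisons with combined plants set the chambers against each other without heat. Nothing in the labels tells whether a group's libraries are from different plants, so p-values measure only the spread between these libraries, which can include technical variation.

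Water shortage in leaves is known to raise abscisic acid, a hormone that closes stomata and switches on genes for protective proteins, compatible solutes and water transport. Heat acts largely through heat shock factors, which switch on chaperone genes, and it also raises the need for transpirational cooling, so that the responses to drought and to heat share some genes and oppose each other in others. Plants under both stresses are therefore known to show leaf transcript patterns that neither stress alone predicts. The deposited table does not pair gene identifiers with names, and 0 of the 32190 identifiers matched the RefSeq table of 74976 genes. The 47 members are therefore given by identifier, no function is assigned to any of them, and the leaf origin of the RNA was not checked against marker genes.

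Library totals ran from 19.2 to 61.6 M counts, with a median of 34.6 M. A set of 405 genes, found by a search among the 0 h libraries without their labels, was nearly absent from 12 of the 54 libraries, which were 0 control, 4 drought and 8 combined libraries, and was intermediate in a further 2 drought and 2 combined libraries. None of the members belongs to that set (0 of 47). In combined plants replicate 2 lacked the set at every time and replicate 3 had it at every time, while replicate 1 changed between times. Lacking and intermediate libraries are unevenly spread over the treatments. Member medians of the tested comparisons are therefore given below with and without them where they touch a comparison.

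At 96 to 168 h the median member stood 0.80 above control in drought plants on the log2 scale, with a range over members of 0.51 to 1.40. In combined plants the median member stood at -0.27 against control, with a range of -1.38 to 0.04. The rule's limit on the combined 75th percentile pushes the combined median down, and 46 of 47 members had it below the control median, with 12 of 47 at least 0.4 below. The gap between the drought and combined medians was 1.11 for the median member and ran from 0.57 to 2.77. The members were spread over a wide range of abundance, with mean levels of 3.46 to 342 CPM and a median of 21.7 CPM. Scaling by the trimmed mean of M values (TMM), which corrects for differences in library composition, moved the drought value to 0.61 and the combined value to -0.45, with 47 of 47 members then below control in combined plants, and left the gap at 1.11. CPM on column totals placed the median of all expressed genes as much as 0.30 above control in drought plants at 120 h, against 0.03 with TMM scaling, so medians of differences between arms and changes against 0 h are given on both scales below.

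**Figure D1:**
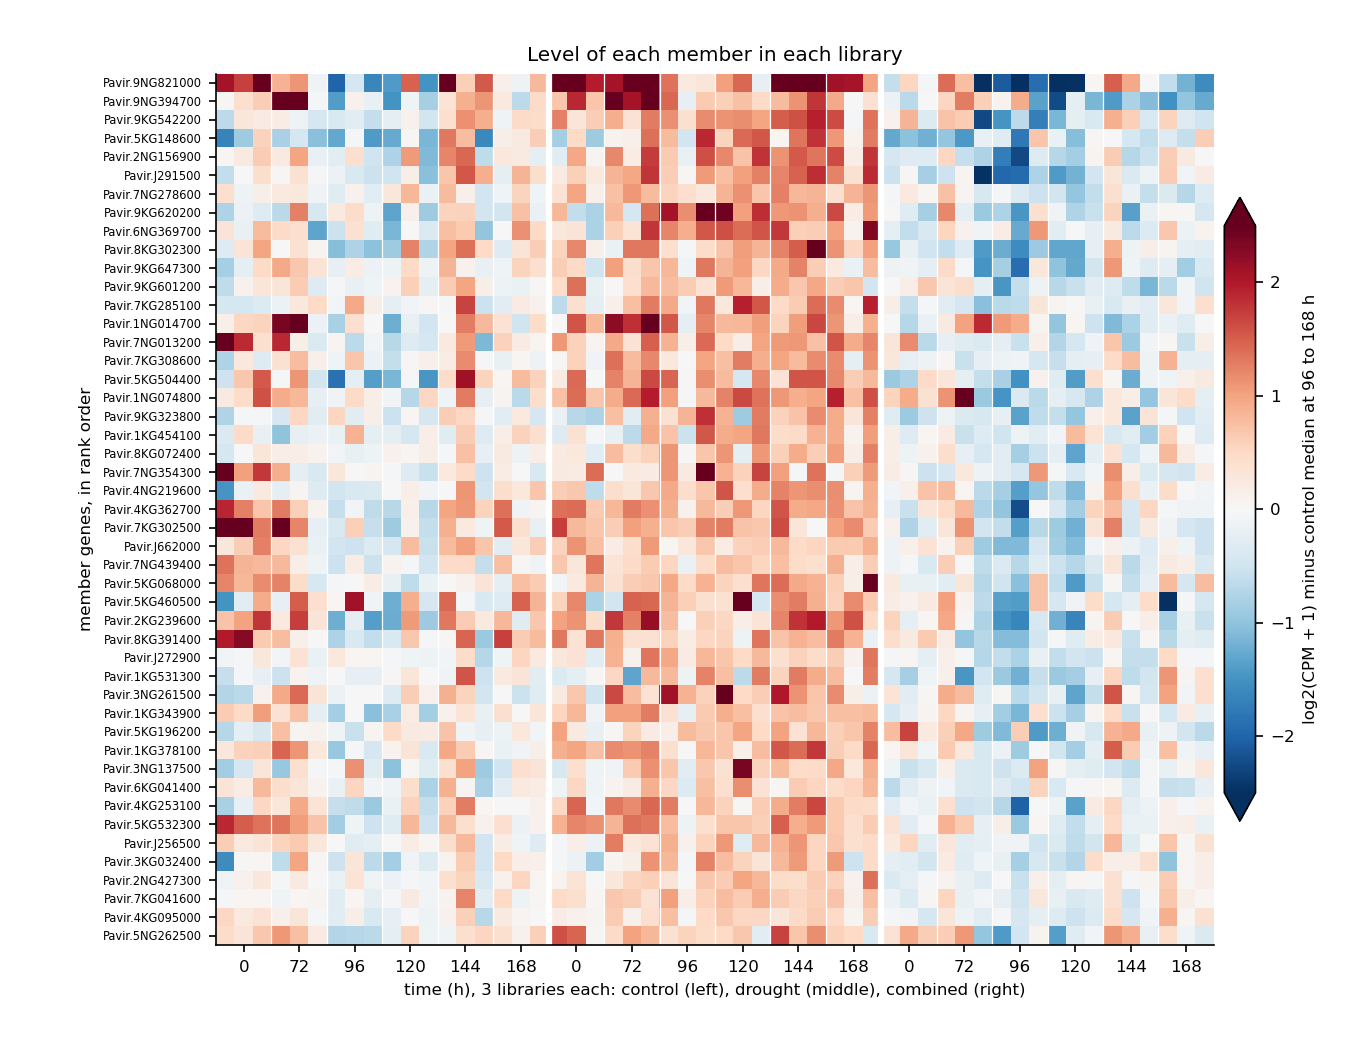
Each row is one of the 47 members in rank order, each column one of the 54 libraries in treatment and time order, and the colour is log2(CPM + 1) minus the member's control median at 96 to 168 h. Red cells fill most of the drought block from 72 h on and blue cells prevail in the combined block at 96 and 120 h, while several members are also red in control libraries at 0, 72 and 144 h.

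The member ranked first, Pavir.9NG821000.v4.1 on chromosome 9N, had control levels at 96 to 168 h of 8.72 CPM at the lowest, 37.8 CPM at the median and 234 CPM at the highest. In drought plants the corresponding levels were 32.6, 101 and 527 CPM, and in combined plants they were 1.38, 14.0 and 108 CPM. It had the largest drought and combined differences from control of all members, 1.40 and -1.38, but the 3 ranges overlapped. The member ranked second, Pavir.9NG394700.v4.1, also on 9N, stood at 19.4, 57.0 and 122.8 CPM in control, at 48.9, 92.3 and 199 CPM in drought, and at 11.3, 25.9 and 109 CPM in combined plants. These were also the members whose combined median lay farthest below control, at -1.38 and -1.11 on the log2 scale.

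The most abundant member in drought plants was Pavir.4KG253100.v4.1 on 4K, with a lowest, median and highest level of 145, 276 and 669 CPM in control, 275, 431 and 880 CPM in drought, and 66.8, 259 and 394 CPM in combined plants at 96 to 168 h. Next came Pavir.4NG219600.v4.1 on 4N, at 148, 205 and 442 CPM in control, 214, 393 and 610 CPM in drought, and 77.9, 189 and 412 CPM in combined plants. In both, the combined median stood slightly below the control median and the single libraries of all 3 treatments overlapped. The lowest ranks were held by Pavir.4KG095000.v4.1, with medians of 45.7, 65.4 and 40.9 CPM in control, drought and combined plants, and by Pavir.5NG262500.v4.1, with 8.87, 13.2 and 7.95 CPM.

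**Figure D2:**
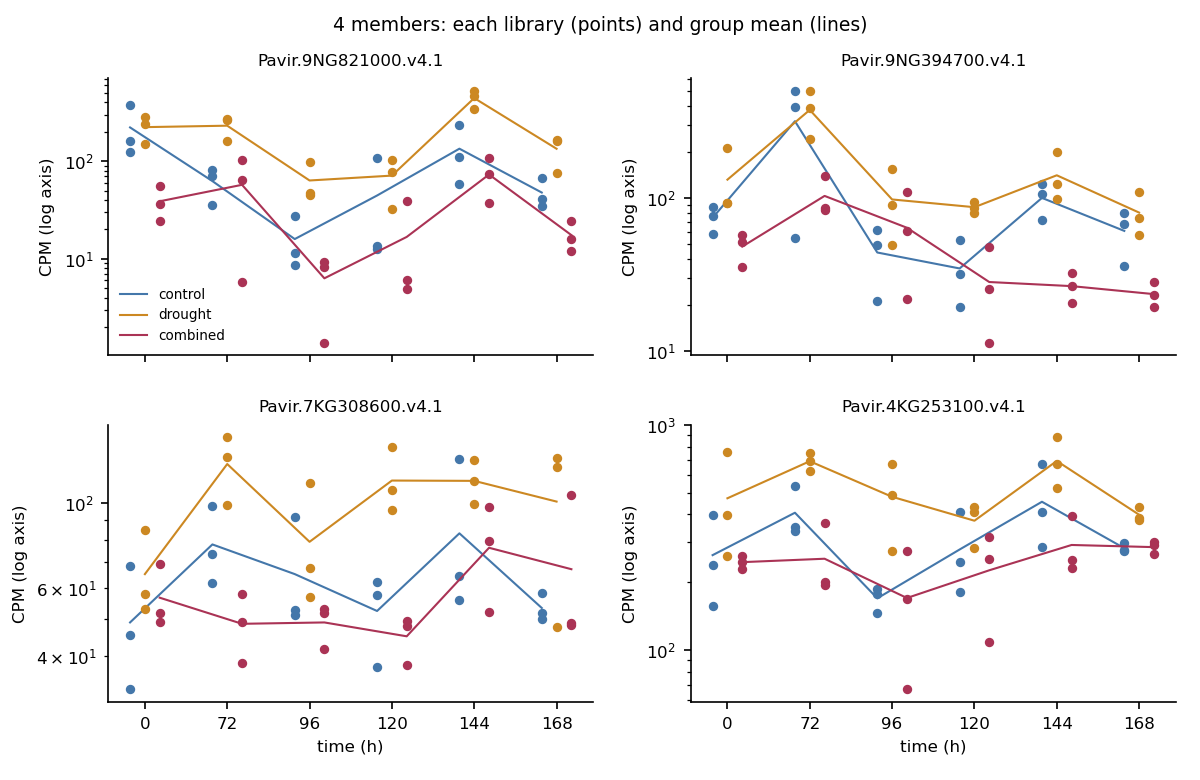
CPM (log axis) against time for the first and second ranked members, for Pavir.7KG308600.v4.1, and for Pavir.4KG253100.v4.1, with points for single libraries and lines through the mean of each group of 3. The drought line runs above the combined line at every time in the 4 panels, including 0 and 72 h, and the control line comes close to the drought line of the first ranked member at 0 h and of the second ranked member at 72 h.

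Some members lay close to the limits of the rule. On the drought limit of 0.4, Pavir.6KG041400.v4.1 at 0.407 and Pavir.2NG427300.v4.1 at 0.408 were just inside, whereas Pavir.5NG617300.v4.1 at 0.398 and Pavir.5KG405000.v4.1 at 0.396 were just outside. On the combined limit of 0.2, Pavir.6NG369700.v4.1 at 0.194 and Pavir.1NG074800.v4.1 at 0.193 were inside, and Pavir.4NG113100.v4.1 at 0.210 and Pavir.6NG013100.v4.1 at 0.213 were outside. Membership depended on the settings of the rule: TMM-scaled CPM returned 35 genes, 16 of them members, and the rule run without the libraries lacking the set of 405 genes returned 127 genes, 31 of them members. Over 10 alternatives, the members Pavir.9KG542200.v4.1, Pavir.7NG278600.v4.1 and Pavir.9KG620200.v4.1 were returned every time, and these 3 are named here after their values were seen.

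The median over the 47 members was then taken in each library, relative to each member's control median at 96 to 168 h. At those times the 12 control libraries lay between -0.38 and 0.66, and the highest of them, replicate 2 at 144 h, lay above the 2 lowest drought libraries. Drought libraries lay between 0.03 and 0.96, with 10 of the 12 at or above 0.71. The exceptions were replicate 2 at 96 h, at 0.03, and replicate 2 at 168 h, at 0.31. The former was also the deepest library, with 61.6 M counts, and intermediate in the set of 405 genes; the part of either in its low value was not tested. Combined libraries lay between -0.84 and 0.40.

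Libraries with and without the set of 405 genes overlapped in this measure. In drought plants the 3 lacking libraries had a median of 0.75 and the 7 libraries with the set a median of 0.82, while the 2 intermediate ones were at 0.03 and 0.94. In combined plants the 6 lacking libraries had a median of -0.21, with a range of -0.84 to 0.40, and the 6 with the set had a median of -0.22, with a range of -0.61 to -0.16. The 4 combined libraries above 0 or at most at -0.72 at these times were all lacking libraries.

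**Figure D3:**
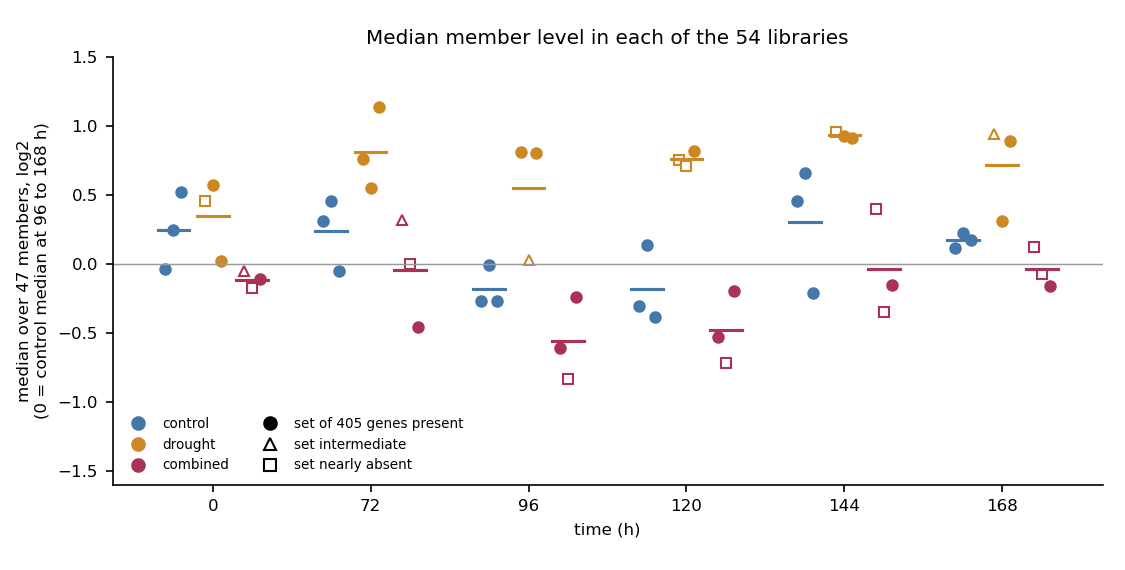
Median over the 47 members in each library (points) and mean of each group of 3 (bars), in log2 units with 0 at the control median of 96 to 168 h, with time on the x axis and open symbols for libraries where the set of 405 genes is nearly absent or intermediate. Drought libraries sit highest at most times, from 0.55 to 1.14 at 72 h. Combined libraries reach lowest at 96 and 120 h, from -0.84 to -0.20, and overlap the control libraries at both times.

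Over time, the drought and combined arms were apart before any heat was given. On group means of log2 values, the median member stood lower in combined than in drought plants by -0.39 at 0 h on column totals, when the median of all expressed genes stood at -0.19, and by -0.16 with TMM scaling, when all genes stood at 0.03. At 72 h the member median was -0.74 on column totals and -0.76 with TMM, with 47 of 47 members lower on both scales and all-gene medians of 0.03 and 0.01. In the times that chose the members, the TMM values went from -1.22 (96 h) through -1.18 (120 h) and -1.08 (144 h) to -1.0 (168 h). Since the rule selected for a wide gap at these later times, their values are not comparable with those at 0 and 72 h.

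Drought minus control took another course. With TMM scaling the median member stood at 0.23 before treatment (0 h) and at 0.36 after 72 h. It was higher at 96 h (0.72) and 120 h (0.76), and lower again at 144 h (0.64) and 168 h (0.47). Combined minus control was -0.01 at 0 h and -0.57 at 72 h, and then lay between -0.61 and -0.42. Only the values at 0 and 72 h come from libraries that the rule did not read, and those libraries share arms and chambers with the later ones. Whether they also share plants with them was not tested. The comparisons share their groups, so these 3 courses are not independent of each other.

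**Figure D4:**
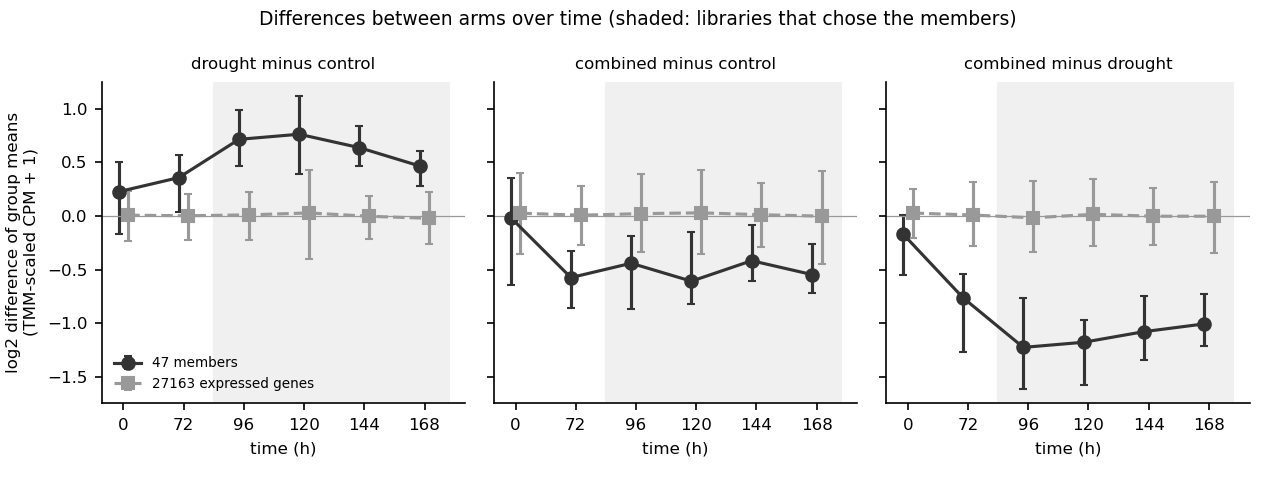
Difference between treatments in mean log2(CPM + 1), TMM-scaled, against time, as the median (points) and the 25th to 75th percentile (bars) over the 47 members in black and over 27163 expressed genes in grey; shaded times chose the members. The grey medians stay at 0.03 or nearer to 0, while the member median for combined minus drought goes from -0.16 at 0 h through -0.76 at 72 h to -1.22 at 96 h.

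The levels at 96 to 168 h were next set against each arm's own 0 h level, again as a description. Drought plants stood above their start on both scales: taking the mean over 96 to 168 h, the median member was at 0.36 on column totals and at 0.34 with TMM scaling, with 37 of 47 above on each, where the medians of all expressed genes were 0.04 and 0.03. For control and combined plants the value depended on the scale. In control plants the median member was at -0.21 on column totals, with all genes at -0.15, and at -0.00 with TMM, with all genes at 0.05. In combined plants it was at -0.12 on column totals with 31 of 47 below, while all genes stood at 0.29, and at -0.40 with TMM with 45 of 47 below, while all genes stood at 0.01.

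Not every member stood above its own start in drought plants. On column totals, 20 members had a drought mean above its 0 h level and a control mean not below its own, and 17 had drought above and control below. With TMM scaling these counts were 23 and 14. The last 10 members, a number found on both scales, stood below their own 0 h level in all 3 arms. On column totals these 10 include the first and second ranked members. Such members were above control in drought plants at 96 to 168 h without being above their own start.

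Within each arm, the time of the lowest level was counted over the 47 members. In combined plants 22 members were lowest at 96 h and 14 at 120 h on column totals, and 23 and 15 with TMM. In control plants 21 and 15 were lowest at these times on column totals, and 18 and 11 with TMM, where a further 16 were lowest at 0 h. In drought plants 25 of 47 members were lowest at 0 h on both scales, and 11 and 4 at 96 and 120 h. The highest level fell at 144 h for 15 members in control, 16 in drought and 13 in combined plants on column totals, and for 11, 25 and 15 with TMM.

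Tests were restricted to the 18 libraries at 0 and 72 h, which the rule did not read. They were fitted with edgeR's quasi-likelihood model, with calls at a Benjamini-Hochberg adjusted p below 0.05 over all 31985 genes tested, a filter that all 47 members passed. In drought against control at 72 h, 0 of 47 members were called by edgeR and 0 by DESeq2. By edgeR the background was equally empty, with 0% of all genes called, while DESeq2 called 118 of the 31985 genes higher and 138 lower. By edgeR 2 members (4.26%) had an unadjusted p below 0.05, both higher, a smaller share than the 6.13% of all genes. The median log2 fold change of the members was 0.29, with 37 of 47 positive, against 0.01 over all genes, and it ran from 0.17 without drought replicate 3 to 0.55 without control replicate 2.

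Among members higher in drought at 72 h, the smallest p belonged to the first ranked one and Pavir.5KG148600.v4.1 on 5K. The first ranked Pavir.9NG821000.v4.1 stood at 69.6, 82.0 and 35.6 CPM in control and at 162, 263 and 267 CPM in drought replicates 1 to 3, with a log2 fold change of 1.75 ± 0.74 (SE) and an edgeR adjusted p of 0.801. Its groups did not overlap, but the difference did not pass the test. Pavir.5KG148600.v4.1 stood at 9.94, 13.1 and 8.28 CPM in control and at 19.2, 19.8 and 48.5 CPM in drought, again without overlap (log2 1.29 ± 0.57, edgeR adjusted p = 0.808). On the other side, Pavir.7KG302500.v4.1 on 7K was at 35.6, 12.9 and 4.20 CPM in control and at 8.24, 11.2 and 10.1 CPM in drought (log2 -0.96 ± 0.67, edgeR adjusted p = 0.880). Its control libraries spread on both sides of the drought ones. Pavir.7NG354300.v4.1 on 7N overlapped likewise, with a log2 fold change of -0.24 ± 0.54 (edgeR adjusted p = 0.977). Over the members, 13 (27.7%) had all drought libraries above all control libraries on column totals, where 13.3% of all genes did. With TMM scaling 10 (21.3%) did, where 7.24% of all genes did.

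Combined against drought at 72 h compares droughted plants of the 2 chambers before heat, and it gave the lowest member median of the 7 comparisons tested. The median log2 fold change of the members was -0.83, with 45 of 47 negative, against 0.03 over all genes. By edgeR 0 of 47 members were called, where 0.594% of all genes were called in either direction, and 23 members (48.9%) had an unadjusted p below 0.05, all lower in combined plants, where 16.5% of all genes had one in either direction. DESeq2 called 7 members lower, 14.9% of them, where it called 2.39% of all genes lower. All combined libraries lay below all drought libraries for 19 of 47 members (40.4%) on column totals, where 7.67% of all genes did. With TMM scaling 19 members (40.4%) also did, where 8.56% of all genes did.

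Among the members lower in combined plants, Pavir.7KG308600.v4.1 on 7K had the smallest p. It stood at 148, 98.6 and 131 CPM in drought and at 57.9, 38.4 and 49.1 CPM in combined plants at 72 h (log2 -1.38 ± 0.30, edgeR adjusted p = 0.0507, DESeq2 adjusted p = 0.00104). The groups were well apart, and edgeR's value missed the threshold narrowly. Next was Pavir.7KG285100.v4.1, also on 7K, at 8.29, 13.4 and 19.8 CPM in drought and at 6.07, 5.33 and 3.09 CPM in combined plants (log2 -1.50 ± 0.40, edgeR adjusted p = 0.0839, DESeq2 adjusted p = 0.0117). The only members with a higher fitted level in combined plants were Pavir.5KG196200.v4.1, at a log2 fold change of 0.15 ± 0.50 (edgeR adjusted p = 0.914), and Pavir.1NG074800.v4.1, at 0.08 ± 0.65 (edgeR adjusted p = 0.968). In both, combined replicate 2 was the highest library and replicate 3 the lowest: Pavir.1NG074800.v4.1 read 40.1, 110.3 and 8.91 CPM in combined plants against 34.7, 49.2 and 72.5 CPM in drought plants.

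The 3 combined libraries at 72 h differed in the set of 405 genes as well as in the members. Replicate 2 lacked the set and replicate 1 was intermediate, and their member medians were -0.00 and 0.32 on the scale of the library plot, while replicate 3, which has the set, was at -0.45. Without the lacking libraries the median log2 fold change against drought was -0.85 and 0 members were called by edgeR. Without the intermediate ones too, replicate 3 stood alone for the combined arm at 72 h, and the median was -1.68. Leaving out replicate 1 alone gave 3 calls, where 223 of 31995 genes were called lower, and a median of -1.10. Leaving out replicate 3 gave 0 calls and a median of -0.48.

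Against control, combined plants at 72 h stood below in 42 of 47 members, with a median log2 fold change of -0.54 and an all-gene median of 0.03. The member median ran from -0.82 without combined replicate 1 to -0.33 without control replicate 2. It was -0.58 without the lacking libraries, and -1.49 without the intermediate ones too, where combined replicate 3 stood alone. By edgeR 0 members were called and 0% of all genes, 11 members (23.4%) had an unadjusted p below 0.05, all lower, where 14.2% of all genes had one in either direction, and DESeq2 called 1 member lower, where it called 1.11% of all genes lower. That member was the second ranked Pavir.9NG394700.v4.1, at 395, 504.5 and 54.9 CPM in control and at 83.1, 140.2 and 86.4 CPM in combined plants (log2 -1.76 ± 0.58, edgeR adjusted p = 0.198, DESeq2 adjusted p = 0.0436). Control replicate 3 lay below all combined libraries, so the groups overlapped. Pavir.1KG378100.v4.1 on 1K came next, at 187, 146 and 81.3 CPM in control and at 106.8, 81.4 and 50.4 CPM in combined plants (log2 -0.94 ± 0.32, edgeR adjusted p = 0.210). On the higher side were Pavir.1NG074800.v4.1, with a log2 fold change of 0.85 ± 0.66 (edgeR adjusted p = 0.602), and Pavir.4NG219600.v4.1, with 0.19 ± 0.49 (edgeR adjusted p = 0.900). The combined libraries lay below all control libraries for 4 members (8.51%) on column totals, where 4.65% of all genes did. With TMM scaling 7 members (14.9%) did, where 8.84% of all genes did.

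At 0 h, before drought or heat, the combined and drought arms were compared to see how far the members already differed between them. The median log2 fold change was -0.27, with 36 of 47 members lower in combined plants, against -0.00 over all genes. It ran from -0.52 without drought replicate 3 to -0.12 without drought replicate 2. The median was -0.28 without the lacking libraries, and -0.21 without the intermediate ones too, where combined replicate 3 stood alone. No member passed the test by edgeR (0 of 47, with 0% of all genes called) or by DESeq2 (0 of 47, where 138 of 31985 genes were called higher and 270 lower). By edgeR 5 members (10.6%) had an unadjusted p below 0.05, all lower, a share equal to the 10.6% of all genes. All combined libraries lay below all drought libraries for 19 of 47 members (40.4%) on column totals, where 16.9% of all genes did. With TMM scaling 9 members (19.1%) did, where 7.32% of all genes did. The first ranked Pavir.9NG821000.v4.1 read 238, 280 and 150.1 CPM in drought plants and 24.6, 55.0 and 36.8 CPM in combined plants at 0 h, with control plants at 162, 125 and 377 CPM. Its combined libraries were thus below all others before treatment, at a log2 fold change against drought of -2.31 ± 0.76 (edgeR adjusted p = 0.328). Pavir.5KG532300.v4.1 on 5K also did not overlap, at 11.1, 14.7 and 13.7 CPM in drought and 7.59, 4.53 and 5.56 CPM in combined plants (log2 -0.94 ± 0.33, edgeR adjusted p = 0.351). Pavir.5KG196200.v4.1, at 0.81 ± 0.51 (edgeR adjusted p = 0.616), and Pavir.J256500.v4.1, at 0.49 ± 0.36 (edgeR adjusted p = 0.688), were the members with the smallest p on the higher side.

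From 0 to 72 h, no member was called by edgeR in any arm. In drought plants the median log2 fold change was 0.44 with 38 of 47 members positive, in control plants it was 0.29 with 29 positive, and in combined plants -0.07 with 17 positive. Leaving out one library at a time gave 0.19 (without drought 0 h replicate 3) to 0.63 (without drought 0 h replicate 2) in drought plants and 0.15 (without control 0 h replicate 1) to 0.44 (without control 0 h replicate 3) in control plants, so the order of these arms is not settled. The range in combined plants was -0.43 (without combined 72 h replicate 1) to 0.17 (without combined 72 h replicate 3), which includes both signs. Without the lacking libraries the medians were 0.42 in drought plants and -0.10 in combined plants. Without the intermediate ones too they were 0.45 and -0.90, where combined replicate 3 stood alone at both times. By edgeR 0 members were called in each of the 3 arms, where it called 0% of all genes in drought plants, 0% in combined plants and 0.00313% in control plants. Unadjusted p below 0.05 was reached by 7 members in drought plants (14.9%, against 8.15% of all genes), all higher. In control plants 7 higher and 2 lower members reached it (19.1%, against 16.8%), and in combined plants 1 higher and 1 lower (4.26%, against 9.995%). DESeq2 called 0 members in drought and in combined plants. Of 31985 genes it called 46 higher and 134 lower in drought plants, and 104 higher and 39 lower in combined plants. In control plants it called 3 members higher, where it called 1.37% of all genes higher, and 1 lower, where it called 1.7% lower.

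In drought plants, Pavir.7KG308600.v4.1 went from 57.9, 84.7 and 53.1 CPM at 0 h to 148, 98.6 and 131 CPM at 72 h, without overlap (log2 0.94 ± 0.30, edgeR adjusted p = 0.583). Pavir.9KG323800.v4.1 on 9K went from 6.76, 4.39 and 4.17 CPM to 13.8, 6.25 and 15.1 CPM, with replicate 2 at 72 h below replicate 1 at 0 h (log2 1.16 ± 0.38, edgeR adjusted p = 0.583). Members with lower values at 72 h were Pavir.7NG354300.v4.1, at -0.67 ± 0.54 (edgeR adjusted p = 0.767), and Pavir.8KG391400.v4.1 on 8K, at -0.54 ± 0.46 (edgeR adjusted p = 0.777).

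In control plants, Pavir.9NG394700.v4.1 went from 58.4, 76.8 and 87.4 CPM to 395, 504.5 and 54.9 CPM (log2 2.36 ± 0.59, edgeR adjusted p = 0.184, DESeq2 adjusted p = 0.00581). Its 72 h control replicates 1 and 2 were high and replicate 3 was below all 0 h libraries, a split that Pavir.1NG014700.v4.1 on 1N shared, at 265.5, 330.0 and 45.6 CPM at 72 h against 54.9, 72.26 and 74.7 CPM at 0 h (DESeq2 log2 1.92 ± 0.54, DESeq2 adjusted p = 0.0228). Pavir.3NG261500.v4.1 on 3N went from 8.88, 9.24 and 16.5 CPM to 30.4, 42.6 and 19.5 CPM without overlap (log2 1.70 ± 0.47, edgeR adjusted p = 0.184, DESeq2 adjusted p = 0.0254). Pavir.7NG354300.v4.1 was lower at 72 h, from 21.2, 5.68 and 10.2 CPM to 5.16, 1.79 and 1.53 CPM (log2 -1.79 ± 0.55, edgeR adjusted p = 0.191, DESeq2 adjusted p = 0.0447). Pavir.8KG391400.v4.1 had a log2 fold change of -1.27 ± 0.46 (edgeR adjusted p = 0.222), with overlapping groups.

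In combined plants, Pavir.1NG014700.v4.1 went from 50.3, 30.4 and 44.6 CPM to 59.0, 102 and 186 CPM without overlap (log2 1.19 ± 0.55, edgeR adjusted p = 0.497), and Pavir.9NG394700.v4.1 had a log2 fold change of 0.89 ± 0.56 (edgeR adjusted p = 0.586). Pavir.8KG391400.v4.1 went from 7.62, 6.47 and 9.05 CPM to 6.22, 2.20 and 2.93 CPM, also without overlap (log2 -1.24 ± 0.47, edgeR adjusted p = 0.455), and Pavir.7KG285100.v4.1 was at -0.68 ± 0.40 (edgeR adjusted p = 0.552). The differences between these changes were tested in the same model. The change to 72 h in combined plants minus that in drought plants had a member median of -0.58 on the log2 scale, with 39 of 47 negative. Here edgeR called 0 of 47, with 4 (8.51%) at an unadjusted p below 0.05, where 9.14% of all genes were. Without the lacking libraries the median was -0.52. Without the intermediate ones too, combined replicate 3 stood alone at both times and the median was -1.40. The change in drought minus that in control plants had a median of 0.19 with 30 of 47 positive. Here edgeR again called 0 of 47, with 0 at an unadjusted p below 0.05, where 7.12% of all genes were. That median was 0.22 without the lacking libraries, and 0.22 without the intermediate ones too. DESeq2 was not run on these differences, and the change in combined minus control plants was not tested.

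**Figure D5:**
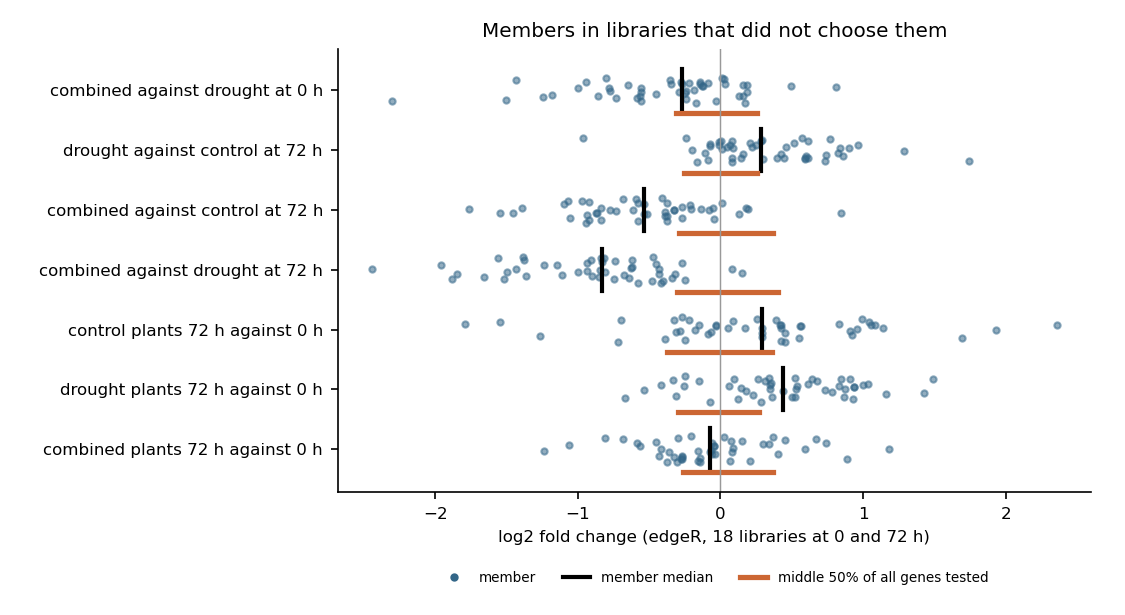
Log2 fold change of each of the 47 members (points) in the 7 comparisons of libraries at 0 and 72 h, from edgeR, with the member median (black) and the middle 50% of all 31985 genes tested (orange). The member medians are 0.29, -0.54 and -0.83 for the 3 comparisons between arms at 72 h and 0.44 for drought plants from 0 to 72 h, and the orange bar shows the spread of single genes only.

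Correlations among the members were also taken. Over the 54 libraries, the median Pearson correlation of log2 levels among the 1081 member pairs was 0.52, with 1 pair negative, but the rule chose the members on most of these libraries. Over the 18 libraries at 0 and 72 h it was 0.44, with 122 pairs negative, and for deviations from group means over all 54 libraries it was 0.32. These are descriptions of points that share libraries, their depth and their composition. Correlations among all expressed genes were not taken for comparison. By the chromosome coded in the identifier, 28 members (59.6%) lay on the K subgenome and 15 (31.9%) on the N subgenome, against 49.1% and 47.2% of the expressed genes, and 4 (8.51%) were on sequence placed on no chromosome, against 3.72%. Chromosome number 7, in both subgenomes, held 8 members (17.0% against 8.89% of expressed genes). The closest pair in identifier order was Pavir.7KG302500.v4.1 and Pavir.7KG308600.v4.1, 61 identifier steps apart, so no members placed on chromosomes were immediate neighbours.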

How the data were processed

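Leaf RNA was sequenced after a stranded mRNA library preparation, per the labels' protocols. The submitters' processing notes name TopHat, Cufflinks and HTSeq. Not given in the sources used here: build, annotation and whether the counting used strand. The authors deposited raw read counts for 32190 genes in 54 libraries, and all columns were used. For near-identical gene copies, including K and N subgenome pairs, and for overlapping genes, the counting could divide reads in unknown ways, so such values are uncertain. The 3 combined libraries whose titles read 94 h were taken as 96 h, the time in the design text, and titles of 1 week as 168 h.

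The members, tests and alternatives were chosen with earlier results of these data known. Members were found on log2(CPM + 1) with column totals. Tests used edgeR 4.0.16 (R 4.3.3) on the counts of the 18 libraries at 0 and 72 h (6 groups of 3), with TMM scaling and the default filter (minimum count 10, minimum total 15), which kept 31985 genes. Fold changes and standard errors come from contrasts of group means, and calls used Benjamini-Hochberg adjustment over all genes at 0.05. Alternatives were DESeq2 1.42.0, its size factors in edgeR, no filter or a stricter filter (1 CPM in 9 libraries), all 54 libraries, only the groups compared, the replicate number as a block, leaving out libraries that lack the set of 405 genes, and leaving out each library in turn. The differences between changes to 72 h, the rule without intermediate libraries or without control 144 h replicate 2, and TMM-scaled overlaps and changes against 0 h were added after seeing the data.

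Named members are ranks 1 and 2, the lowest 2 ranks, the 2 most abundant in drought plants, the 2 farthest below control in combined plants, and in each comparison the 2 with the smallest p on each side. The naming rule asked for ranks 149 to 152, which do not exist among 47 members, so the lowest ranks and the genes nearest the limits took their place. In simulated counts for drought against control at 72 h, over 31978 genes, the test recovered 3% of 2-fold and 54% of 4-fold changes, so changes of 2-fold are mostly missed at this depth and number of libraries. Between replicates, the squared differences of counts were no less than 23.4 times what sampling gives, so no library was a copy of another in its group. Pairs across groups were not compared.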

Additional observations from a re-analysis of the deposited data

How the results depend on the processing

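In 3 of the 7 comparisons the member count, 0 in each as reported, moved with the processing. In combined against drought at 72 h, DESeq2 called 7 members lower, where it called 763 of 31985 genes lower. The stricter filter gave 1, with 101 of 30517 genes lower, and the fit of all 54 libraries gave 4, with 221 of 32011. Leaving out each library in turn gave 0 to 3. The 3 came without combined replicate 1, where 223 of 31995 genes were lower. The fit without lacking or intermediate libraries also called members lower in combined against drought at 72 h. Combined replicate 3 stood alone at 72 h in that fit, so these calls are not taken as a result. The member median of that fit was -1.68. In control plants from 0 to 72 h, DESeq2 called 3 members higher and 1 lower, where it called 437 and 545 of 31985 genes. The fit of all 54 libraries, which takes part of its spread from the libraries that chose the members, called 2 members higher, with 120 of 32011 genes. In combined against control at 72 h, DESeq2 called 1 member lower and the fit without lacking or intermediate libraries 6. DESeq2 called 354 of 31985 genes lower there. The fit without lacking or intermediate libraries rests on combined replicate 3 alone at 72 h, so its count is not taken as a result. Its member median was -1.49. Leaving out each library moved the member medians as given with each comparison. This turned the sign only for combined plants from 0 to 72 h (-0.43 to 0.17).

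Values of single members turned direction in a few settings. Pavir.1NG074800.v4.1 in combined against control at 72 h was -0.26 without the lacking libraries and -2.01 without the intermediate ones too, and in combined against drought at 72 h it was -0.12 with the replicate block, -0.99 and -2.77. Pavir.5KG196200.v4.1 against drought at 72 h was -0.20 and -1.45 in the same library subsets. Without lacking or intermediate libraries, Pavir.4NG219600.v4.1 against control was -0.94 and Pavir.J256500.v4.1 against drought at 0 h was -0.13. The cause was not tested.

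The rule itself returned 127 genes without the lacking libraries, 150 without the intermediate ones too, and 27, 82 and 121 without 120, 144 and 168 h. No comparison had r over 0.1 in every pair of same-numbered libraries (r from -0.51 to 0.66), so the numbers were not taken as pairing. Every r was positive in combined against drought at 72 h and in drought plants from 0 to 72 h, with a lowest r of 0.03 in each. In combined plants, 72 h against 0 h, r was -0.07, 0.66 and 0.43 for replicates 1 to 3. Whether a replicate number there follows the same plants over time was not tested. With the replicate block 0 members were called in each comparison. A recovery of 3% of 2-fold changes in simulated counts limits what groups of 3 libraries can show.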
